A study of Mus musculus with 12 samples.

Results

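Itgax, Cd209a, Clec10a, Clec9a, Xcr1, Batf3, Zbtb46, Cst3 and Naaa are 9 genes used to recognise classical dendritic cells, and their RNA was followed through 6 sorted bone marrow populations. They were chosen by name: every probe that the array annotation assigns to one of them was taken, which gave 11 probes for 9 of the 31541 gene names on the array. Of these 9 genes, 6 (Itgax, Cd209a, Clec10a, Clec9a, Cst3 and Naaa) could be tested, since both arrays of some population measured a probe of theirs well above background. Xcr1, Batf3 and Zbtb46 could not, and are described by their values only.

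All 6 populations came from female C57BL/6 mice of 16 weeks that carry the Cebpa-Enh/prom-hCD4 reporter. Its name gives human CD4 (hCD4) as a surface tag under the enhancer and promoter of Cebpa, a gene for a transcription factor of the myeloid lineage. The populations were hCD4+ granulocyte-monocyte progenitors (GMP), hCD4- pre-pro-B cells, hCD4+ pre-pro-B cells, hCD4- pro-B cells, hCD4+ pro-B cells and pre-B cells, for which no hCD4 state is given. A sort by this tag reads the activity of the reporter, not the Cebpa transcript, and no cells without the reporter were compared. Each population was measured on 2 arrays, 12 in all. The series title names 2 mice, the labels do not say which array came from which mouse, and the sort gates are not given in the sources used here, so p-values measure only the spread between these samples, which may be technical.

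Classical dendritic cells take up antigen and present it to T cells, and in the marrow they arise from progenitors that respond to the cytokine Flt3 ligand. Their first type (cDC1) needs the transcription factor Batf3 and bears the chemokine receptor Xcr1 and the dead-cell receptor Clec9a. Their second type (cDC2) bears C-type lectins such as Cd209a and Clec10a. Itgax encodes CD11c, an integrin chain carried by most dendritic cells, and Zbtb46 is a transcription factor that marks the classical lineage. Cst3 encodes cystatin C, an inhibitor of cysteine proteases, and Naaa a lysosomal amidase, and both are abundant in classical dendritic cells without being limited to them.

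The probes are shown because each gene's value rests on 1 or 2 of them; the first 30 of the 60 bases are given 5′ to 3′. Coordinates (mm9) come from the array annotation, which names the transcript of each probe; its place in an exon or UTR was not analysed here.
Itgax, probe A_51_P303424: tcccatctacttttgcaacgttggaattga
Clec10a, probe A_55_P2045055: ctgaaatctgtgatattttgtacagtgtgc
Clec9a, probe A_66_P103027: gcaatagtctgtaacgctttgcagatttca
Cd209a, probe A_55_P2018061: ggacatggtgagcctcaatgttatagacct
Cd209a, probe A_51_P133884: tccttgtcaaagtctacaaaatacccagtt
Zbtb46, probe A_52_P241508: tgctcggtgatgatggctcacttctgttcg
Zbtb46, probe A_52_P214042: gtcacatgtgcgtttttaaaaaggagttga
The Itgax probe lies at chr7:135294052-135294111 on the plus strand, that of Clec10a at chr11:69984254-69984313 on the plus strand and that of Clec9a at chr6:129372492-129372551 on the plus strand. For Cd209a, A_55_P2018061 lies at chr8:3743481-3743540 on the minus strand. The 60 bases of its other probe, A_51_P133884, are placed over the 672 bases of chr8:3747664-3748335, so this probe joins separate stretches of the genome. Both Zbtb46 probes lie on the minus strand of chromosome 2, at chr2:181146404-181146463 and chr2:181145799-181145858. Cst3 (chr2:148697681-148697740, minus strand), Naaa (chr5:92687671-92687730, minus strand), Xcr1 (chr9:123761482-123761541, minus strand) and Batf3 (chr1:192932528-192932587, plus strand) have 1 probe each.

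Levels below are the log2 of the processed signal minus the array's own 75th percentile, so 0 is the brightness of that percentile and 1 unit is a doubling. They can be compared between samples for 1 probe, not between probes. Across the arrays the 75th percentile lay between 246 and 946 intensity units, dimmest in the hCD4- pre-pro-B arrays (358 and 246), and the dimmest probe still well above background had a level between -4.91 and -3.96. Arrays of 1 group correlated at 0.982 to 0.992 over genes. GMP and hCD4- pre-pro-B samples shared slide 1, hCD4- pro-B and hCD4+ pre-pro-B samples slide 2, and hCD4+ pro-B and pre-B samples slide 3. The hCD4+ and hCD4- samples of a stage were therefore on different slides, and slide and group cannot be told apart there; 3 comparisons within a slide are given as well. The label check held in both directions: Pax5 and Ebf1, genes of committed B cells, were not well above background on any GMP or pre-pro-B array and were measured on every pro-B and pre-B array. The surrogate light chain genes Vpreb1 and Igll1 were brightest in hCD4- pro-B cells (8.12 ± 0.05 and 5.54 ± 0.16, SD, n = 2). Mpo, Elane and Cebpa were brightest in GMP (8.56 ± 0.35, 7.48 ± 0.21 and 1.78 ± 0.27). Cebpa was at -1.69 ± 0.35 in hCD4+ pro-B cells and not well above background in hCD4- pro-B cells.

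The 4 surface receptor genes Itgax, Clec10a, Cd209a and Clec9a were high in both pre-pro-B populations. They were lower in hCD4+ pro-B cells, and lower again in hCD4- pro-B and pre-B cells. There at least 1 array of each group did not measure Clec9a and Cd209a well above background. In GMP the 4 genes differed from one another. Itgax stood at 5.03 and 5.08 on the hCD4- pre-pro-B arrays and at 5.21 on both hCD4+ pre-pro-B arrays. It was 1.30 and 0.98 in hCD4+ pro-B cells, -2.89 and -4.06 in hCD4- pro-B cells, -3.45 and -3.58 in GMP, and -4.05 and -6.50 in pre-B cells, the last not well above background. Both pre-pro-B populations lay above every other array, hCD4+ pro-B cells lay between, and GMP fell within the range of the hCD4- pro-B arrays.

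Clec10a, a galactose-binding lectin of cDC2 and macrophages, was 5.23 and 5.10 in hCD4- pre-pro-B cells and 5.08 and 5.0 in hCD4+ pre-pro-B cells. It was 0.89 and 0.73 in hCD4+ pro-B cells, 0.56 and 0.65 in GMP, -2.26 and -3.23 in hCD4- pro-B cells, and -2.47 and -5.11 in pre-B cells, the last not well above background. GMP lay 0.21 below hCD4+ pro-B cells, a gap larger than the 0.16 between the hCD4+ pro-B arrays but not past the test (adjusted p = 0.833). The hCD4- pro-B and pre-B arrays overlapped.

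Clec9a, the cDC1 receptor for dead cells, was 1.17 and 1.64 in hCD4- pre-pro-B cells and 1.41 and 1.64 in hCD4+ pre-pro-B cells, and these arrays overlapped. It was -1.81 on both hCD4+ pro-B arrays and -3.57 and -4.02 in GMP. On the hCD4- pro-B arrays it was not well above background (-5.81 and -6.48), and in pre-B cells it passed background on 1 array (-4.52) and not on the other (-6.03). Each step from pre-pro-B to hCD4+ pro-B to GMP was larger than the range within either group.

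Cd209a, a lectin of the DC-SIGN family, was 2.07 and 2.37 in hCD4- pre-pro-B cells and 1.85 and 2.09 in hCD4+ pre-pro-B cells on its brighter probe. It was -1.50 and -1.59 in hCD4+ pro-B cells, and on no GMP array was it well above background. In hCD4- pro-B cells 1 array measured it (-4.63) and 1 did not (-6.94), and likewise in pre-B cells (-3.69 and -6.01). The other probe, which joins separate genomic stretches, gave -1.88 and -1.39 in hCD4- pre-pro-B cells and -3.03 and -2.95 in hCD4+ pre-pro-B cells. It was well above background on only 1 hCD4+ pro-B array (-4.28) and on no array of the remaining groups. So both probes were highest in the pre-pro-B arrays, and they differed in how far apart the pre-pro-B populations lay.

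Cst3 and Naaa, the protease inhibitor and the lysosomal amidase, were measured on all 12 arrays and spanned a narrower range. Cst3 was 5.68 and 5.44 in hCD4- pre-pro-B cells, 5.46 and 5.77 in hCD4+ pre-pro-B cells and 5.46 and 5.47 in GMP, and these 3 groups overlapped. It was 4.50 and 4.27 in hCD4+ pro-B cells, 3.88 and 3.98 in pre-B cells and 3.82 and 3.89 in hCD4- pro-B cells, where the last pair of groups overlapped. Naaa was -0.57 and -0.80 in hCD4- pre-pro-B cells, -0.58 and -0.71 in hCD4+ pre-pro-B cells, -1.06 and -1.12 in GMP, -1.61 on both pre-B arrays, -1.83 and -1.56 in hCD4+ pro-B cells and -2.39 and -2.47 in hCD4- pro-B cells. For both genes the mean was lowest in hCD4- pro-B cells and highest in hCD4+ pre-pro-B cells, and GMP was brighter than either pro-B population.

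**Figure D1:**
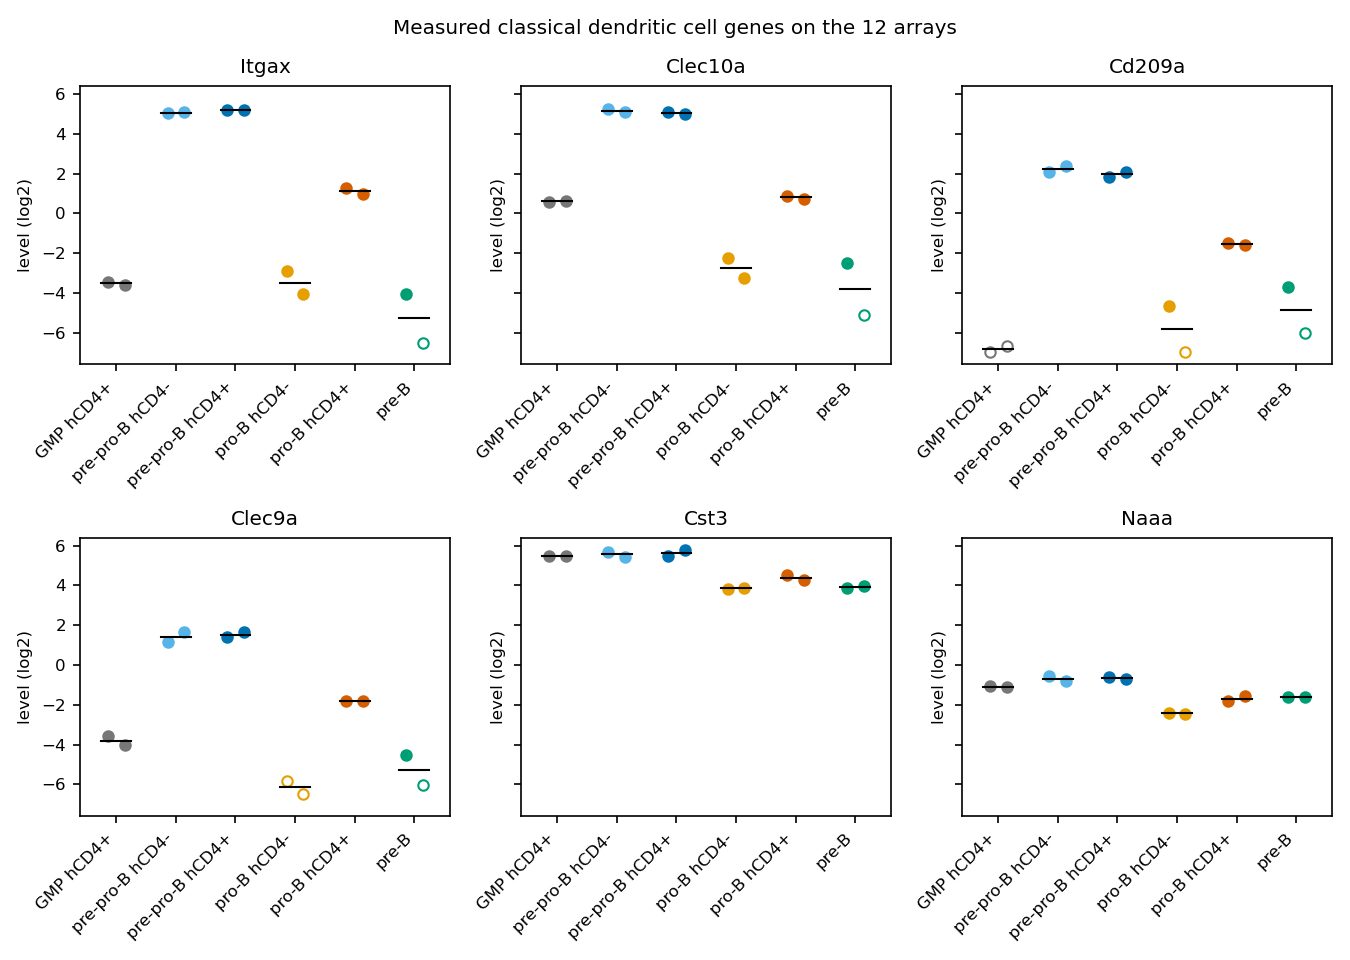
Level of the 6 tested genes (log2 of processed signal minus the array's 75th percentile, vertical axis) on the 12 arrays, by sorted population; filled points are well above background, open points are not, and bars are means of 2 arrays. The 4 receptor genes are highest in both pre-pro-B populations and intermediate in hCD4+ pro-B cells, while Cst3 and Naaa span a narrower range.

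The 3 remaining genes gave no level that both arrays of a group shared. Xcr1, the chemokine receptor of cDC1, was not well above background on any of the 12 arrays (-7.12 to -6.10). Batf3, the cDC1 transcription factor, was not either. Its signal was nevertheless highest in hCD4+ pro-B cells (-5.34 and -4.91, against -7.15 to -6.12 elsewhere), just under the dimmest measured probes of those arrays (-4.81 and -4.61). Without the filter on dim probes this difference from hCD4- pro-B cells was 1.94 ± 0.32 (SE, limma, adjusted p = 0.0106). Neither of these signals was well above background. Zbtb46 passed background on exactly 1 array of each of the 6 groups with probe A_52_P241508 (-4.59 to -2.26 on those 6 arrays) and on none with A_52_P214042, so its levels had no order among the groups. A probe that is not well above background does not show that its transcript was absent.

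**Figure D2:**
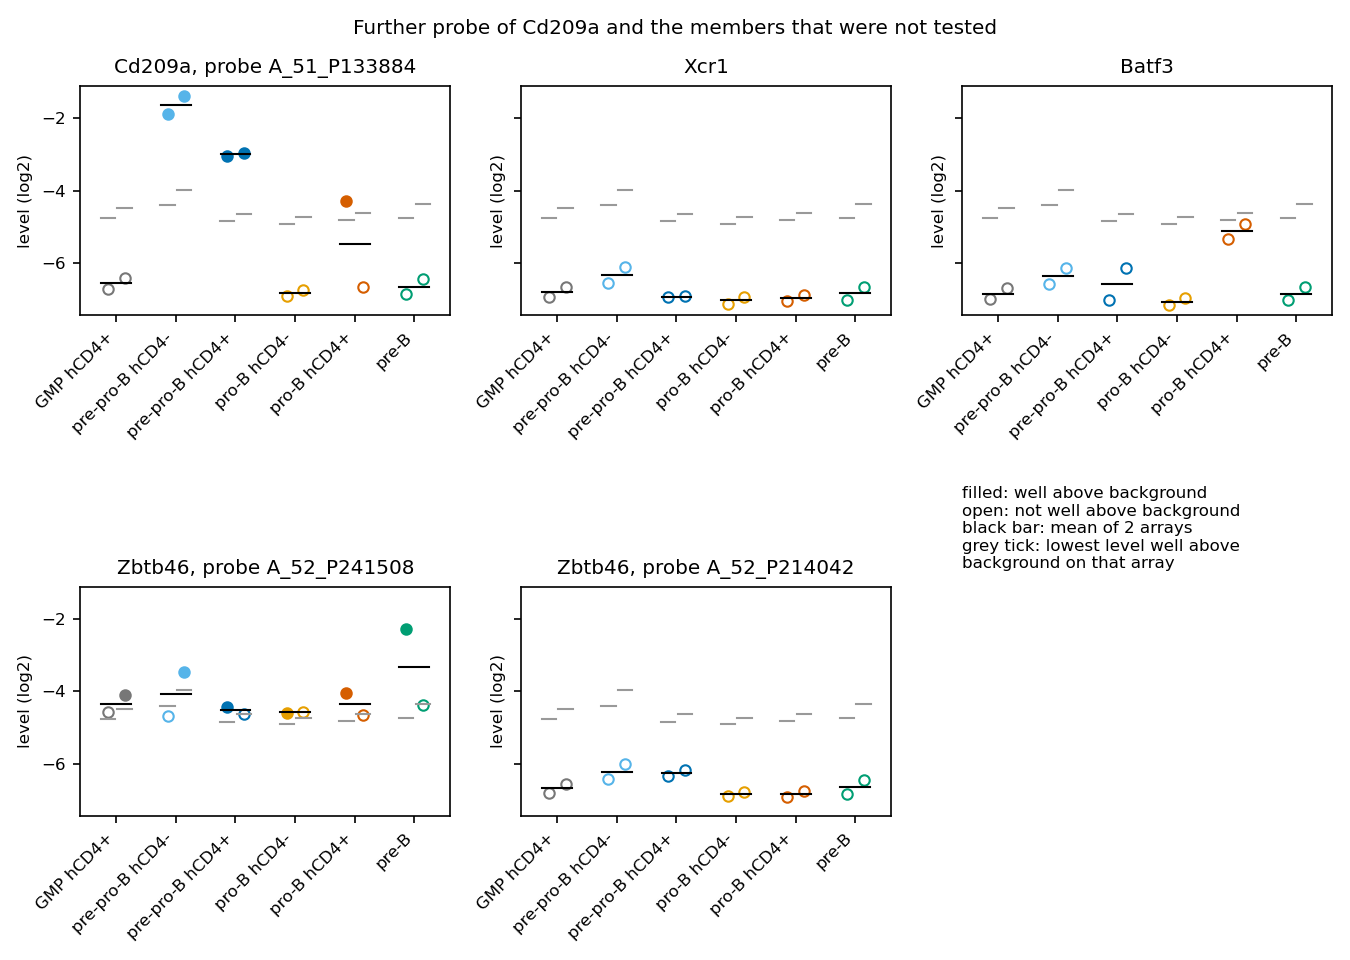
Level (log2, vertical axis) of the second Cd209a probe and of the probes of Xcr1, Batf3 and Zbtb46 on the 12 arrays; filled points are well above background, open points are not, black bars are means and grey ticks the dimmest measured level of each array. The Cd209a probe is highest in pre-pro-B cells, and the Batf3 signal in hCD4+ pro-B cells (-5.34 and -4.91) stays under the grey ticks.

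Whether cells with an active Cebpa reporter carry more of these transcripts was asked first in pro-B cells. All 6 tested genes were higher in hCD4+ than in hCD4- pro-B cells, while 11.6% of the 18556 genes tested were called higher and 8.86% lower; Xcr1, Batf3 and Zbtb46 had no test. The receptor genes rose most: Itgax by 4.61 ± 0.68 on the log2 scale (SE, limma, adjusted p = 0.00336), a 24.4-fold difference. Clec10a rose by 3.56 ± 0.70 (limma, adjusted p = 0.0109), and Cd209a by 4.24 ± 0.82 (adjusted p = 0.0102). For Cd209a, 1 of the 2 hCD4- arrays was not well above background. Clec9a, not well above background in hCD4- pro-B cells, was at least 8.08-fold higher (limma, adjusted p = 7.17e-04).

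Naaa and Cst3 moved in the same direction by less. Naaa rose by 0.74 ± 0.13 (1.67-fold, adjusted p = 0.00742) and Cst3 by 0.53 ± 0.15 (1.45-fold, adjusted p = 0.0375). The median difference of the 6 genes was 3.90, against 0.02 over all genes tested. Cd209a and Clec9a had passed the filter through groups in which they are bright, so the count of 6 higher genes describes the genes that could be measured. The second Cd209a probe differed by 1.34 ± 0.62 and did not pass (adjusted p = 0.177). With 2 arrays a group the calls depended on single arrays. Without hCD4- pro-B replicate 2 only Itgax and Clec9a passed, and without either hCD4+ pro-B replicate only Itgax, Clec9a and Naaa. The call of Cst3 was lost in 11 of the 23 alternatives: leaving out any 1 of the GMP, pro-B or pre-B arrays, no filter on dim probes (adjusted p = 0.0860), only the arrays compared (0.0593) and array-median scaling. With that scaling, which lowers the median of all genes in this comparison by 0.22, Cst3 (0.31, adjusted p = 0.260) and Naaa (0.52, adjusted p = 0.0646) did not pass. That scaling also turns the split of all called genes from 56.8% higher to 31.1%. The sizes for dim genes depended on the background correction: in the authors' deposited table, fitted the same way, Cd209a rose by 1.10 and Clec9a by 1.60.

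In pre-pro-B cells the same contrast gave no call. None of the 6 genes passed in either direction (limma, and 0 at an unadjusted p under 0.05), where 8.78% of all genes were called higher and 8.26% lower. Itgax was 0.15 higher in hCD4+ cells (95% confidence interval -1.42 to 1.73) and Clec9a 0.12 higher (-0.92 to 1.16). Clec10a was 0.12 lower (-1.74 to 1.5) and Cd209a 0.25 lower (-2.14 to 1.64). These intervals leave room for sizeable differences. Those of Cst3 (0.06, -0.28 to 0.40) and Naaa (0.04, -0.27 to 0.34) were narrower. For Itgax and Clec10a the arrays did not overlap, and for Cd209a, Clec9a, Cst3 and Naaa they did. The second Cd209a probe differed by -1.35 ± 0.62 (adjusted p = 0.166), and in the authors' deposited table Cd209a was lower by 0.55 and passed (limma, adjusted p = 0.0420). Array-median scaling moves the median of all genes here by 0.30 and the share of calls that are higher from 51.5% to 83.4%.

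The difference between both contrasts was itself tested. The hCD4 difference was larger in pro-B than in pre-pro-B cells for 5 of the 6 genes (13.0% of all genes were called in this direction, 10.0% in the other). It was larger by 4.46 ± 0.97 for Itgax (adjusted p = 0.0155), 4.21 ± 0.64 for Clec9a (adjusted p = 0.00380), 4.49 ± 1.16 for Cd209a (adjusted p = 0.0287) and 3.68 ± 1.00 for Clec10a (adjusted p = 0.0328). The sizes for Clec9a and Cd209a rest in part on signal not well above background in hCD4- pro-B cells. Among the 23 alternatives their lowest values were 1.45 and 1.65. For Naaa the value was 0.70 ± 0.19 (adjusted p = 0.0317), a call lost in 14 of the 23 alternatives: the value was 0.57 under quantile normalization (adjusted p = 0.0673), 0.42 under normexp with quantile normalization (0.0861), 0.40 in the authors' deposited table (0.121) and 0.18 under array-median scaling (0.601). The calls of Clec10a and Cd209a were lost in 8 and 7 alternatives, each without a filter on dim probes and otherwise with 1 array left out. Cst3 did not pass (0.47 ± 0.21, adjusted p = 0.132), and its value was -0.05 under array-median scaling, which lowers the median of all genes here by 0.52 and takes the share of higher calls from 56.6% to 18.0%; under quantile normalization the median falls by 0.10. Leaving out 1 array left 1 to 5 calls. Without hCD4- pro-B replicate 2 only Clec9a passed. Leaving out either array of hCD4+ pro-B or of hCD4+ pre-pro-B cells left 2 genes called, and either array of hCD4- pre-pro-B cells 3.

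**Figure D3:**
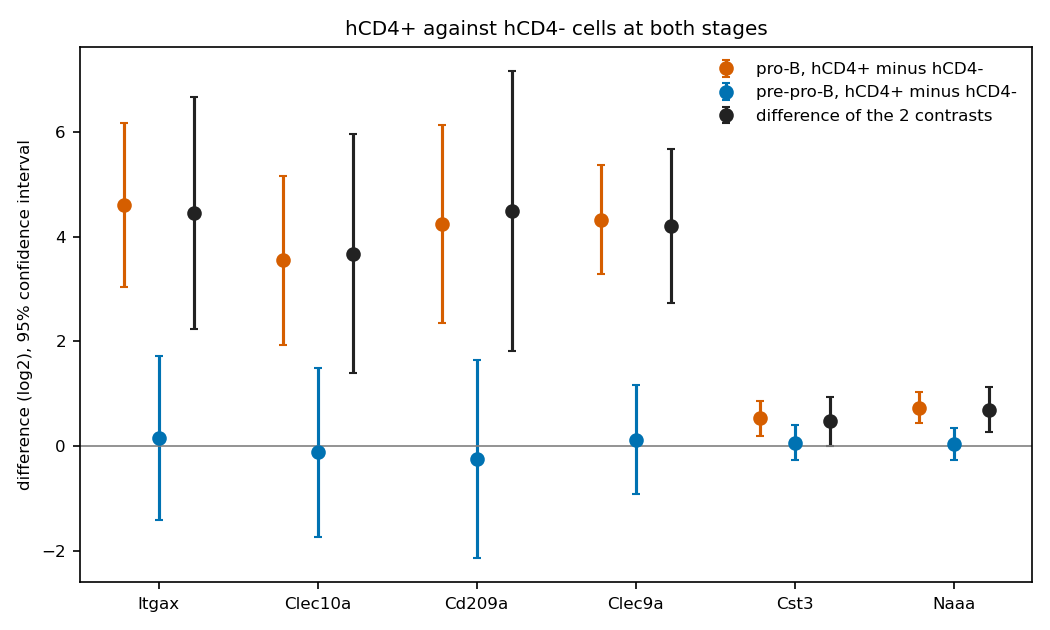
Difference on the log2 scale (vertical axis, with 95% confidence intervals of the limma fit) between hCD4+ and hCD4- cells for the 6 tested genes, in pro-B cells, in pre-pro-B cells, and the difference between both contrasts. The pro-B values of the 4 receptor genes lie between 3.56 and 4.61, and the pre-pro-B values between -0.25 and 0.15. In hCD4- pro-B cells Clec9a was well above background on no array and Cd209a on only 1, so their sizes rest in part on unmeasured signal.

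The step from pre-pro-B to pro-B cells was asked within each hCD4 state. All 6 tested genes were lower in pro-B cells in both. Among hCD4+ cells, where 33.1% of all genes were called higher and 21.1% lower, hCD4+ pro-B cells kept 5.96% of the pre-pro-B signal of Itgax (a difference of -4.07 ± 0.68, adjusted p = 0.00138). They kept 5.32% for Clec10a, 8.73% for Cd209a and 9.92% for Clec9a, and 42.6% for Cst3 and 48.3% for Naaa. The test passed for each of these 6 under every alternative run. Among hCD4- cells (32.7% higher and 26.9% lower) the signal left was 0.271% for Itgax, 0.416% for Clec10a, 30.7% for Cst3 and 29.8% for Naaa. Clec9a was at least 74.9-fold lower, and Cd209a was at 0.388% with 1 of the 2 pro-B arrays not well above background. In bulk samples such as these, fewer cells of a type and less RNA per cell cannot be told apart. Array-median scaling moves the median of all genes by -0.33 among hCD4+ cells, with 39.2% in place of 61.1% of the calls higher, and by 0.19 among hCD4- cells. Quantile normalization moves it by -0.16 among hCD4+ cells.

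GMP, the myeloid progenitors, were set against hCD4+ pro-B cells, and here the 6 tested genes divided. Cst3 (1.08 ± 0.15, adjusted p = 5.73e-04) and Naaa (0.60 ± 0.13, adjusted p = 0.00667) were higher in GMP, and Itgax (-4.66 ± 0.68, adjusted p = 8.91e-04) and Clec9a (-1.99 ± 0.45, adjusted p = 0.00791) lower. Cd209a was at least 8.40-fold lower in GMP, and Clec10a differed by -0.21 (95% confidence interval -1.82 to 1.41). Over all genes 20.6% were called higher in GMP and 24.4% lower. Under array-median scaling, which raises the median of all genes here by 0.48 and makes 75.5% in place of 45.7% of the calls higher, Clec10a was at 0.27 and not called.

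Each slide held 2 groups, and the comparisons within a slide gave the following. On slide 3, hCD4+ pro-B cells exceeded pre-B cells for 5 of the 6 genes (24.0% of all genes higher, 18.8% lower): by 6.41 ± 0.68 for Itgax, 4.60 ± 0.70 for Clec10a, 3.46 ± 0.45 for Clec9a, 3.30 ± 0.82 for Cd209a and 0.45 ± 0.15 for Cst3. For Itgax, Clec10a, Clec9a and Cd209a, pre-B replicate 2 was not well above background, so these sizes rest in part on unmeasured signal. Without that array Cd209a differed by 2.15. Naaa differed by -0.08 (-0.39 to 0.22). Cst3 lost the call in 13 of the 23 alternatives, and Cd209a without pre-B replicate 2 or either hCD4+ pro-B replicate, which left 3 genes called without hCD4+ pro-B replicate 1 or without pre-B replicate 2. On slide 2, hCD4+ pre-pro-B cells exceeded hCD4- pro-B cells for all 6 tested genes (18.6% higher, 29.2% lower), from 1.76 ± 0.15 for Cst3 to 8.68 ± 0.68 for Itgax. On slide 1, GMP were lower than hCD4- pre-pro-B cells for 5 of the 6 (34.7% higher, 30.8% lower): the difference was -8.57 ± 0.68 for Itgax, -5.20 ± 0.45 for Clec9a and -4.56 ± 0.70 for Clec10a, and Cd209a was at least 114-fold lower. Naaa was 0.41 ± 0.13 lower (limma, adjusted p = 0.0241). That call was lost with the direction kept in 8 alternatives, among them leaving out either GMP array or hCD4- pre-pro-B replicate 1. It was also lost under array-median scaling, where Naaa was 0.04 higher. Cst3 differed by -0.09 (-0.43 to 0.25), and the scaling decided its value. It was called lower in GMP under quantile normalization (-0.61, adjusted p = 0.00408), under normexp with quantile normalization (-0.64, adjusted p = 6.78e-04) and in the authors' deposited table (-0.70, adjusted p = 3.20e-04), and it was 0.36 without a call under array-median scaling. That scaling raises the median of all genes on this slide by 0.45 and takes the share of higher calls from 53.0% to 69.1%; on slide 2 it raises the median by 0.11 and normexp with quantile normalization by 0.11.

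Companion genes of dendritic cells were taken from lists that were drawn up with earlier results of these data known. The list counts here and below stand beside these shares over all genes. In the pro-B contrast 11.6% were called higher and 8.86% lower, and in the pre-pro-B contrast 8.78% and 8.26%. From hCD4+ pre-pro-B to hCD4+ pro-B cells the shares were 33.1% and 21.1%. Several list counts lie near these shares. Among 15 regulators of dendritic cell development, hCD4+ pro-B cells were higher than hCD4- pro-B cells for 5 and lower for 3 (median -0.08, against 0.02 over all genes). Flt3, the receptor that drives dendritic cell growth, rose by 2.64 ± 0.33 (adjusted p = 0.00164), Nfil3, a factor needed for cDC1, by 1.81 ± 0.29 (adjusted p = 0.00459), and Irf8, a factor of cDC1 and plasmacytoid cells, by 1.38 ± 0.12 (adjusted p = 4.00e-04). Irf4, a factor of cDC2 and B cells, fell by 1.23 ± 0.16 (adjusted p = 0.00197), and Id2, which antagonises E proteins, gave -0.68 ± 0.27 (adjusted p = 0.110). In pre-pro-B cells 1 regulator was higher (Cbfb, 0.92 ± 0.11) and 1 lower in hCD4+ cells (Irf8, by 0.53 ± 0.12), while Flt3 gave 0.01 ± 0.33. From hCD4+ pre-pro-B to hCD4+ pro-B cells 12 of the 15 fell and 1 rose, Irf4 by 2.08 ± 0.16; among the falls were Csf2rb (by 2.89 ± 0.15), Irf8 (by 2.64 ± 0.12), Tcf4 (by 2.43 ± 0.22), Flt3 (by 1.76 ± 0.33) and Id2 (by 1.04 ± 0.27).

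Further cDC1 genes could be measured for 9 of 16. In hCD4+ against hCD4- pro-B cells Cd8a (at least 1.96-fold, adjusted p = 3.76e-04) and Gpr141 (1.82 ± 0.25) were higher and the scavenger receptor Cd36 lower by 1.17 ± 0.33 (median of the 9, 0.09); array-median scaling gave 2 higher and 4 lower. The adhesion molecule Cadm1 gave 1.04 ± 1.19 (adjusted p = 0.578). The defining cDC1 markers Itgae (CD103) and Tlr3 were not well above background on both arrays of any group. Of 14 further cDC2 genes 11 were measured, 5 higher and 1 lower (median 0.31). These were led by Cd7 (3.28 ± 0.40), Cd209d (2.26 ± 0.29), Cd300a (1.89 ± 0.35) and, lower, the cytokine gene Ltb (by 1.76 ± 0.19). Sirpa, an inhibitory receptor of cDC2, rose by 1.36 ± 0.20 (adjusted p = 0.00294), and Mgl2 gave 0.23 ± 0.18. Clec4a4 and Esam, which define cDC2, were not measured. In pre-pro-B cells the cDC1 genes gave 0 higher and 1 lower (Cd8a, by 1.01 ± 0.23), and the cDC2 genes 1 higher (the interferon-induced Ifitm1, at least 1.88-fold) and 0 lower.

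Among 16 measured genes of class II presentation and activation, 5 were higher and 2 lower in hCD4+ pro-B cells (median 0.57): H2-DMb2 by 1.92 ± 0.31, H2-DMb1 by 1.69 ± 0.19, H2-Aa by 1.32 ± 0.32 and the class II transactivator Ciita by 0.80 ± 0.19, while Cd40 fell by 1.86 ± 0.46 and H2-Ab1 gave 0.10 ± 0.12. Leaving out any 1 of the 4 pro-B arrays left 3 or 4 higher. In pre-pro-B cells 2 were lower, H2-Ab1 by 0.82 ± 0.12 and H2-Oa by 0.80 ± 0.12.

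Genes of other cells moved in the same comparisons, and their part in the results was not tested. Plasmacytoid dendritic cells, the interferon-producing relatives of classical ones, share Itgax with them. Of 18 plasmacytoid genes 12 were higher and 1 lower in hCD4+ than in hCD4- pro-B cells (median 0.98), among them Runx2 (at least 6.57-fold), Cox6a2 (3.0 ± 0.26), Klk1 (2.88 ± 0.76) and the chemokine receptor Ccr9 (2.68 ± 0.52, adjusted p = 0.00972); Siglech gave 0.30 ± 0.18. Without hCD4- pro-B replicate 2 this count was 5, and without hCD4+ pro-B replicate 1 or 2 it was 6 or 7. In pre-pro-B cells 0 were higher and 1 lower (Lair1, by 0.81 ± 0.20), but 10 were lower in the authors' deposited table. From hCD4+ pre-pro-B to hCD4+ pro-B cells 14 of the 18 fell and 1 rose. Their summed level (log2) was 10.40 and 10.48 in hCD4- pre-pro-B cells, 10.10 and 10.05 in hCD4+ pre-pro-B cells, 8.84 and 8.85 in hCD4+ pro-B cells, 8.78 and 8.72 in hCD4- pro-B cells, 8.51 and 8.55 in pre-B cells and 8.29 and 8.49 in GMP. So this sum and the 4 receptor genes were highest in the same 2 populations. The sums of the regulators, the class II and activation genes and the plasma cell genes were highest there too. That of the further cDC1 genes went the other way, with 5.93 to 6.45 in pre-pro-B cells and 7.37 to 7.89 in pro-B and pre-B cells. For the further cDC2 genes, hCD4+ pre-pro-B cells (7.08 and 7.42) overlapped GMP (7.19 and 7.47). Each sum adds levels of different probes, so its brightest probes weigh most.

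Of 14 measured monocyte and macrophage genes 9 were higher and 0 lower in hCD4+ than in hCD4- pro-B cells (median 1.91). Ms4a6c was at least 25.1-fold higher, the chemokine receptor Ccr2 at least 13.5-fold, Cx3cr1 5.05 ± 0.30 and Csf1r, the receptor for macrophage growth factor, 2.44 ± 0.33, and S100a4 was 3.09 ± 0.25 higher; Emr1 gave 0.32 ± 0.49. In pre-pro-B cells 7 were higher and 0 lower, where F13a1 was at least 12-fold higher, Fn1 at least 5.90-fold and Lyz1 at least 7.65-fold, and Csf1r up by 2.27 ± 0.33. The summed monocyte level was 7.57 and 7.78 in hCD4+ and 8.0 and 8.18 in hCD4- pre-pro-B cells, 5.87 and 5.70 in hCD4+ and 3.69 and 3.45 in hCD4- pro-B cells, 8.31 and 8.56 in GMP and 2.79 and 2.31 in pre-B cells. In GMP, where this sum was highest, Itgax, Cd209a and Clec9a were low, Clec10a was near its hCD4+ pro-B level, Cst3 overlapped its pre-pro-B levels and Naaa lay above both pro-B populations. GMP genes were higher for 10 and lower for 1 of 12 in hCD4+ pro-B cells. Late neutrophil genes went the other way: 7 of 9 were lower in hCD4+ than in hCD4- pro-B cells and none higher (4 lower without hCD4- pro-B replicate 1), S100a9 by 6.53 ± 1.44 and Ltf by 4.80 ± 0.66, and their summed level was 4.74 and 3.88 in hCD4- pro-B cells against 0.50 and -0.16 in hCD4+ pro-B cells. B lineage genes gave 0 higher and 3 lower of 15 (11 lower in the authors' deposited table, and 0 without either hCD4- pro-B array or without hCD4+ pro-B replicate 2), T and NK cell genes 2 higher and 2 lower of 7, and plasma cell genes 0 higher and 1 lower of 5.

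**Figure D4:**
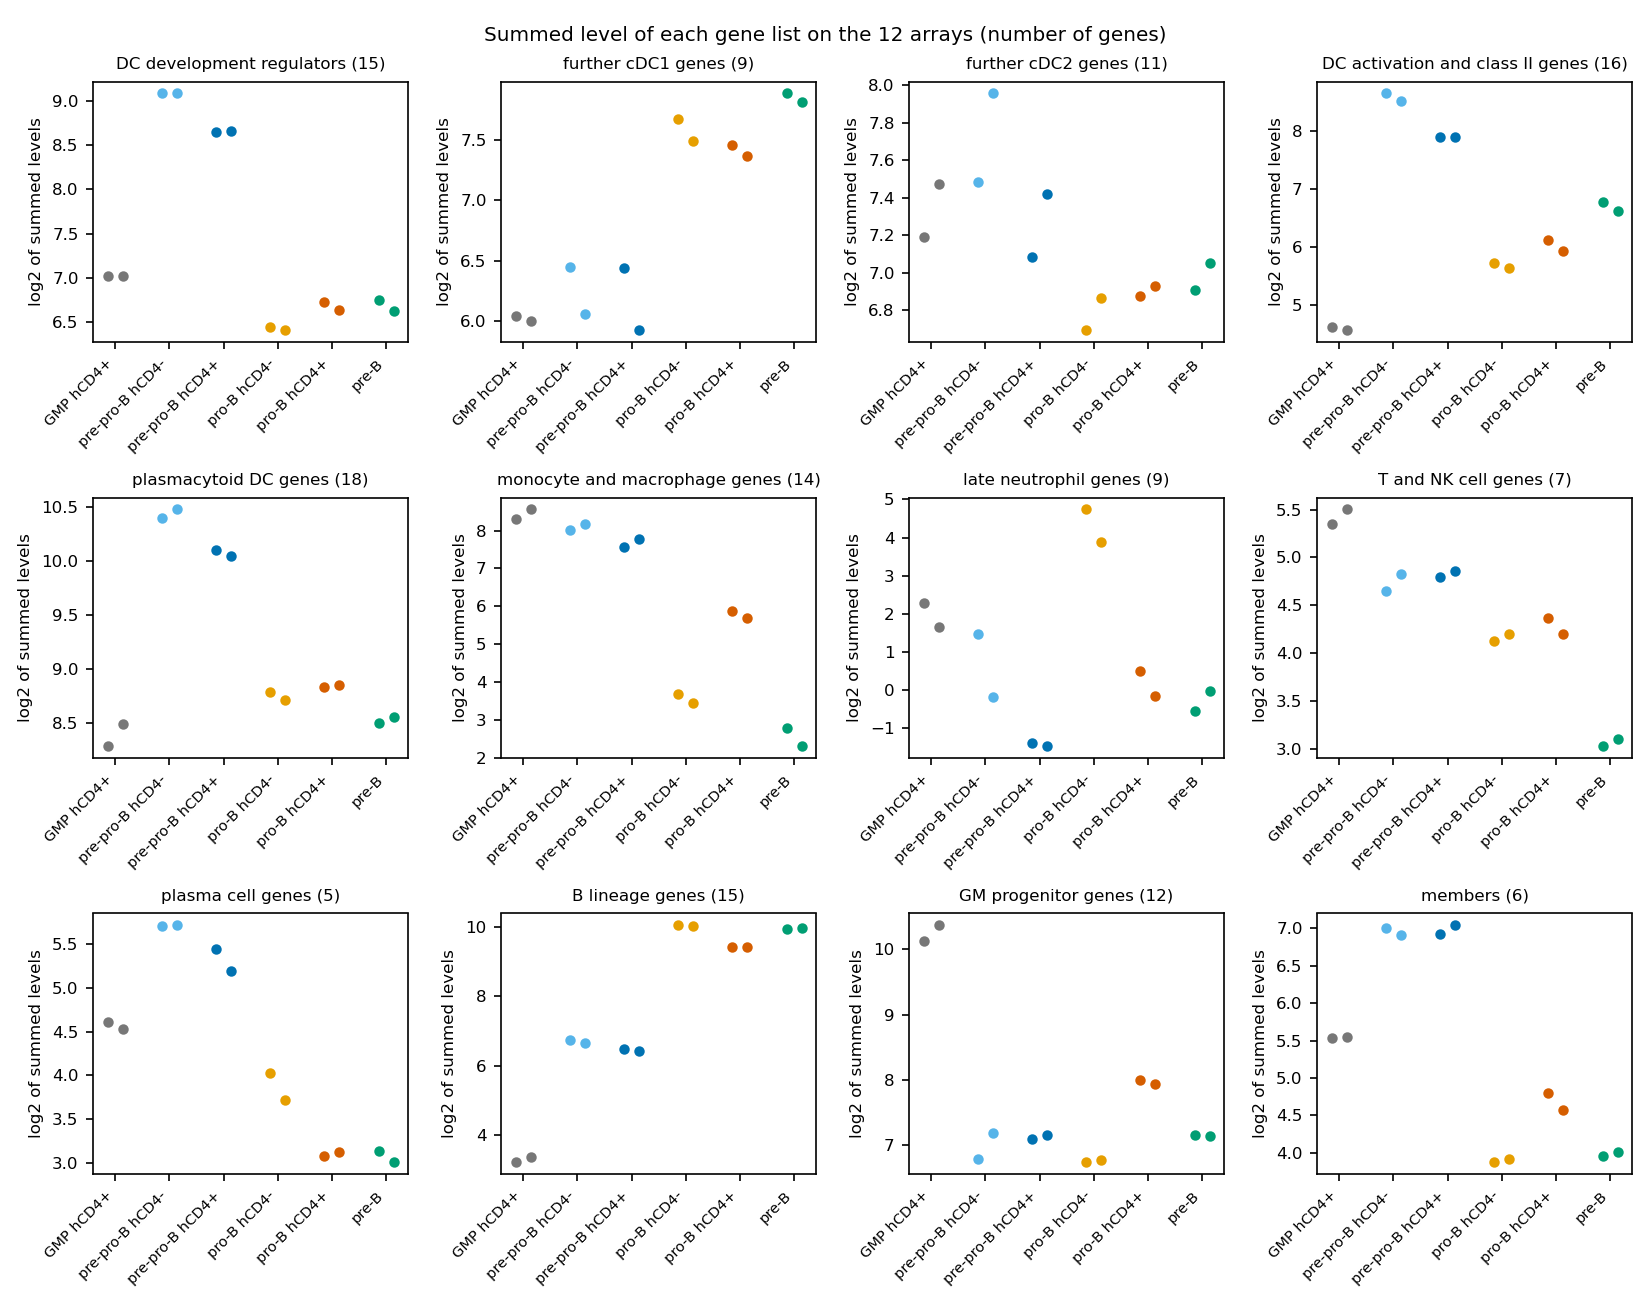
Summed level of the measured genes of each list (log2 of the sum of linear levels, vertical axes of different range) on the 12 arrays by sorted population, with the number of genes summed. Plasmacytoid genes are highest in pre-pro-B cells (10.05 to 10.48), and monocyte genes are high in GMP and pre-pro-B cells and lowest in pre-B cells (2.31 and 2.79).

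Genes whose level followed each tested gene most closely over the 12 arrays were picked from 12388 other measured genes by Pearson correlation. The coefficient is a description, since the arrays fall into 6 groups and the best of many candidates is always high. Itgax was followed by Dusp9 (0.993), Rtn4rl1 (0.988) and Srgap3 (0.981). Cd209a was followed by Ddr1 (0.993), Ptprf (0.993) and Lag3 (0.991). The closest to Clec10a were Mpeg1 (0.998), the gene of a pore-forming protein of phagocytes, Ccnd1 (0.997) and Pkdcc (0.995). Clec9a went with Pira2 (0.995), Gm14548 (0.993) and Gm10693 (0.992), where the first is a paired immunoglobulin-like receptor. Cst3 went with Ctsz (0.996), a lysosomal protease gene, Neurl2 (0.990) and Naglu (0.987), and Naaa with Sorl1 (0.986), Notch2 (0.985) and Hpse (0.973). Mpeg1 had mean levels of 7.29 and 6.84 in hCD4- and hCD4+ pre-pro-B cells, 3.11 in hCD4+ pro-B cells, 2.87 in GMP and -0.09 in hCD4- pro-B cells. Clec10a had the same order, which follows from how Mpeg1 was picked. Among the 6 tested genes themselves, the 4 receptor genes correlated at 0.848 to 0.966 with one another over the 12 arrays, and Cst3 with Naaa at 0.901. Cst3 with Cd209a was lowest at 0.533.

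RefSeq promoters (GRCm38.p6, 250 bases before to 50 after the start) were found for 8 of the 9 genes, all but Clec10a. Itgax, Cd209a and Clec9a are shown because their RNA moved together; 120 bases before the start and the first 5 of the transcript are given, and capitals mark motif matches.
Itgax: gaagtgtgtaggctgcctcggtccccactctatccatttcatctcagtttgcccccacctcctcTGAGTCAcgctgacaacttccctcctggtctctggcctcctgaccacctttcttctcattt
Cd209a: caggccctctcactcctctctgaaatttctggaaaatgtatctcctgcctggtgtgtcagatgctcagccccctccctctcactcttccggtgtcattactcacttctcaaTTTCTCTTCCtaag
Clec9a: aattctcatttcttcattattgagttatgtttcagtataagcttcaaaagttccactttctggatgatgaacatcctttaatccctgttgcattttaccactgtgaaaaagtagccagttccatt
They lie at chr7:128129430-128129554 (plus strand), chr8:3748980-3749104 (minus strand) and chr6:129408742-129408866 (plus strand). In the Itgax window the capitals mark TGANTCA, a motif of AP-1 and Batf-type factors, 56 to 50 bases before the start, and in that of Cd209a the Ets-IRF composite motif, read on the strand opposite to the gene and ending at the first transcribed base. Each motif was searched on both strands of all 32851 promoters. TGANTCA was in 2 of the 8 promoters (Itgax and Zbtb46) and in 7.81% of all, and the Ets-IRF composite in 1 (Cd209a) and 2.72%. GAGGAA, the Ets core read by PU.1, was in Batf3 and Cst3 and in 28.3% of all promoters. AGAGGAAGT, which contains that core (1.00% of all), the interferon-response-like motif (3.44%), which can overlap the composite, and the C/EBP-type motif TTGCNNAA (10.8%) were in none of the 8. A match is a string of letters, and no binding was measured.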

How the data were processed

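Each sample was 1 one-colour array of amplified Cy3-labelled RNA. Per the file headers, the deposited intensity is the processed signal of Agilent Feature Extraction 10.7.3.1 (protocol GE1_107_Sep09), corrected for background. Per the file headers the scanner files also hold software marks (outlier, well above background, control), used here as filters. The authors' deposited table holds log2 values rounded to 1 decimal with equal quartiles over columns; how they were made is not given in the sources used here, and its coordinate columns, which are out of register with its gene names, were not used.

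Here log2 of the processed signal was taken and each array's 75th percentile over 43020 non-control spots subtracted. Outlier spots (2469 values) were left out, no spot was saturated, spots of a probe were averaged, and only probes that both arrays of some group measured well above background were used. A gene took its kept probe of highest mean level (18556 genes). All 12 arrays in 6 groups of 2 entered 1 limma model (limma 3.58.1, R 4.3.3, 6 residual and 2.15 prior degrees of freedom; two-sided, Benjamini-Hochberg over all genes, threshold 0.05), which was tested on simulated data. The simulated arrays had the same spread in every group, no floor and no slide effect, so that test does not cover these features of the data. Errors of differences are standard errors, errors of levels standard deviations, and intervals are 95%. The number of arrays limits the precision. "At least N-fold" sets the group in which no array was well above background to the dimmest measured level of its arrays. Where the group's own level is higher, that level is used. Over all genes, replicates spread most in hCD4- pre-pro-B cells (median standard deviation 0.221, elsewhere 0.098 to 0.152), so the shared error may be too small there. For the 4 receptor genes the spread was instead largest in pre-B cells (1.07 to 1.86), where 1 array was not well above background.

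The 9 genes, the companion lists and the tests were chosen with earlier results of these data known. All 9 genes are named; from each companion list the defining markers and up to 4 called genes with the largest changes per comparison are named, and for likeness the 3 best-correlated genes. Alternatives were 3 other normalizations, filters, probe rules, the authors' table, a floor, a replicate block, only the arrays compared, and each array left out.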

Additional observations from a re-analysis of the deposited data

Results flagged for a closer look

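The hCD4 difference in pro-B cells departed from that in pre-pro-B cells by the test of the difference itself (limma, 2 arrays in each of 4 groups) for 5 genes. It was larger in pro-B cells by 4.46 ± 0.97 on the log2 scale for Itgax (adjusted p = 0.0155) and by 4.49 ± 1.16 for Cd209a (adjusted p = 0.0287). For Clec10a it was larger by 3.68 ± 1.00 (adjusted p = 0.0328), for Clec9a by 4.21 ± 0.64 (adjusted p = 0.00380) and for Naaa by 0.70 ± 0.19 (adjusted p = 0.0317). The sizes for Clec9a and Cd209a rest in part on signal not well above background. Their lowest values among the alternatives were 1.45 and 1.65. Of 23 alternatives, the call was lost in 14 for Naaa (0.18, adjusted p = 0.601, under array-median scaling), in 8 for Clec10a, in 7 for Cd209a and in 2 for Itgax. The 4 groups of this test lie on 3 slides, so that an effect of slide cannot be told apart from it. Groups of 2 arrays are too small for a search for single outlying samples.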

How the results depend on the processing

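The 6 tested genes gave 54 differences, each recomputed under 23 alternatives. Of 1012 recomputed values of a difference that passed the test, 937 kept direction and call, 74 kept direction only and 1 reversed, Naaa in GMP minus hCD4- pre-pro-B cells (0.0435 under array-median scaling). Of 230 values of a difference that had not passed, 4 passed and 12 reversed without a call. Counts of called genes changed by over 1.5 times as follows. The authors' deposited table gave 1 call for the hCD4 contrast in pre-pro-B cells. Testing without a filter on dim probes gave 3 for the difference between both contrasts, namely Itgax, Clec9a and Batf3. Batf3 (2.13, limma, adjusted p = 0.0257) is not among the 6 tested genes, since its dim probe fails the filter. Over the arrays left out in turn, the count was 2 to 6 for the hCD4 contrast in pro-B cells, 1 to 5 for the difference between contrasts and 3 to 5 for hCD4+ pro-B minus pre-B cells. Reversed under array-median scaling were the hCD4 contrast in pre-pro-B cells for Cd209a (0.0527) and Clec10a (0.18), the difference between contrasts for Cst3 (-0.0509), GMP minus hCD4+ pro-B cells for Clec10a (0.27) and GMP minus hCD4- pre-pro-B cells for Cst3 (0.36). That scaling moves the median of all genes, as given above. Leaving out 1 array gave -0.11 to 0.36 for Clec9a, -0.0932 to 0.213 for Cst3 and -0.0775 to 0.153 for Naaa in the pre-pro-B contrast, -0.218 to 0.0538 for Naaa in hCD4+ pro-B minus pre-B cells and -0.211 to 0.0293 for Cst3 in GMP minus hCD4- pre-pro-B cells. In those fits the lone array of a group is assumed to vary like the other groups.

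With the replicate number as a block the counts of called genes were 6 in the pro-B contrast, 0 in the pre-pro-B contrast and 5 for the difference between them, and 6, 6, 5, 5, 6 and 5 in the remaining comparisons, as without it. Deviations of same-numbered arrays correlated at -0.01 to 0.26 between groups (median 0.15, over 0.1 in 10 of 15 pairs of groups), so the numbers were not taken as pairs. The slide as a block could not be fitted between slides. The comparisons within a slide do not replace it, since none sets hCD4+ against hCD4- cells of the same stage. For all genes, 485 in place of 3162 were called in the pre-pro-B contrast with only its arrays, and 1118 to 5317 with 1 of its arrays left out. With 1 array left out the pro-B contrast called 1462 to 1974 in place of 3802 without a pro-B array, and the difference between contrasts 2039 to 2726 in place of 4272 without certain arrays. Signal near background limits Cd209a and Clec9a in pro-B, pre-B and GMP arrays most: with levels under the floor set to it, they rose by 3.14 and 3.01 in hCD4+ pro-B cells, and by 1.61 and 1.59 with normexp.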
